A study of Rattus norvegicus with 49 samples.

Results

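Iron handling genes of the liver were followed in rats whose food had been restricted to different degrees. The genes were Hamp, Bmp6, Id1, Tfr2, Tfrc, Tf, Slc11a2, Slc40a1 and Fth1, and each was read at the probe set that carried its symbol alone and had the highest mean. Of the 9 genes, 7 had such a probe set. Tf (transferrin) and Fth1 (ferritin heavy chain) shared their probe sets with another symbol and have no value here. The 7 belong to 14217 genes read in the same way.

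The arrays measured whole liver RNA of 49 male Sprague-Dawley rats, 8 to 10 weeks of age when the diets began, with 1 Affymetrix rat genome array per rat. Group 1 was fed ad libitum and was not fasted, group 2 had free access to feed until an overnight fast, and groups 3, 4 and 5 were given 15%, 30% and 60% less powdered feed before the same fast. Livers were taken after 4 or 14 days of these diets, called day 4 and day 14 here, from 5 rats per group, or 4 in group 1 at day 14. The sample labels and the methods leave group 1 out of the fast, while the text of the deposited series has all animals fasted; the labels were followed. The rats were housed in pairs or groups, with no cage given in the labels. Values are log2 intensities, which depend on the probes and cannot be ranked between genes.

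Hepcidin, the peptide encoded by Hamp, is made by hepatocytes and lowers the iron in plasma by binding ferroportin, the iron exporter encoded by Slc40a1, and causing its breakdown. Hamp transcription is driven by bone morphogenetic proteins, of which BMP6 comes mainly from sinusoidal endothelial cells, acting with the co-receptor hemojuvelin (Hjv) through SMAD proteins, and by interleukin 6 through STAT3; Id1 and Smad7 are further targets of the SMAD branch in hepatocytes. Tfr2 is a sensor of iron-loaded transferrin on hepatocytes, Tfrc the receptor that takes transferrin into most cells, and Slc11a2 (DMT1) a transporter that brings ferrous iron into the cytosol.

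The promoter of Hamp is shown because both branches are known to act through it, in human and mouse through an element of each kind in the proximal part. The stretch below is the 160 bases before the annotated start of the rat gene (RefSeq, build GRCr8, chr1:95300272-95300431, minus strand), with the 2 motifs found in capitals.
Hamp promoter: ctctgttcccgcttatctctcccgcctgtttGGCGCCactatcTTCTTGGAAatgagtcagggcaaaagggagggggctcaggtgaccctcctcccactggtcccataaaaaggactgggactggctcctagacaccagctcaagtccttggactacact
The first motif, GGCGCC, the core of BMP-responsive elements, began 129 bases before the start. The next, TTCNNNGAA, the letters of a STAT site, began 117 bases before it. Both were searched on both strands in windows of 250 bases before to 50 bases after each start, and they do not overlap. GGCGCC stood in 11% and TTCNNNGAA in 8.87% of the 33469 windows of the rat genome. A window was found for 8 of the 9 genes, all but Fth1. Among them GGCGCC was also in that of Tfrc, TTCNNNGAA in no other, and CACGTG, an E-box present in 6.42% of all windows, in none.

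The liver identity of the samples was checked on marker genes. The 6 hepatocyte markers, albumin (Alb) among them, summed to intensities of 109737 to 121734 over all rats. Arrays of a group had a median correlation with each other of 0.991 to 0.994, and the lowest correlation of any 2 arrays was 0.973.

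Hamp had the widest range of the 7 genes. Its 10 means by group and day spanned 1.90 on the log2 scale, a 3.74-fold range, which placed it 185th among the 14217 genes, whose median range was 0.30. Id1 followed with 1.42 and Slc40a1 with 0.82. Tfrc and Tfr2 both spanned 0.56, Bmp6 0.19 and Slc11a2 0.17. Hamp, Id1 and Slc40a1 had their highest mean in the same livers, those of group 5 at day 14. Tfrc did so too, but its mean there (10.47) hardly differed from that of group 1 at day 4 (10.46), beside a pooled SD within groups of 0.38. How many of all genes peaked in these livers was not counted. When the 10 means of a gene were put in order, the rats of neighbouring groups overlapped in every case except 1 pair in Tfr2. How often neighbouring groups were apart over all genes was not counted.

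**Figure D1:**
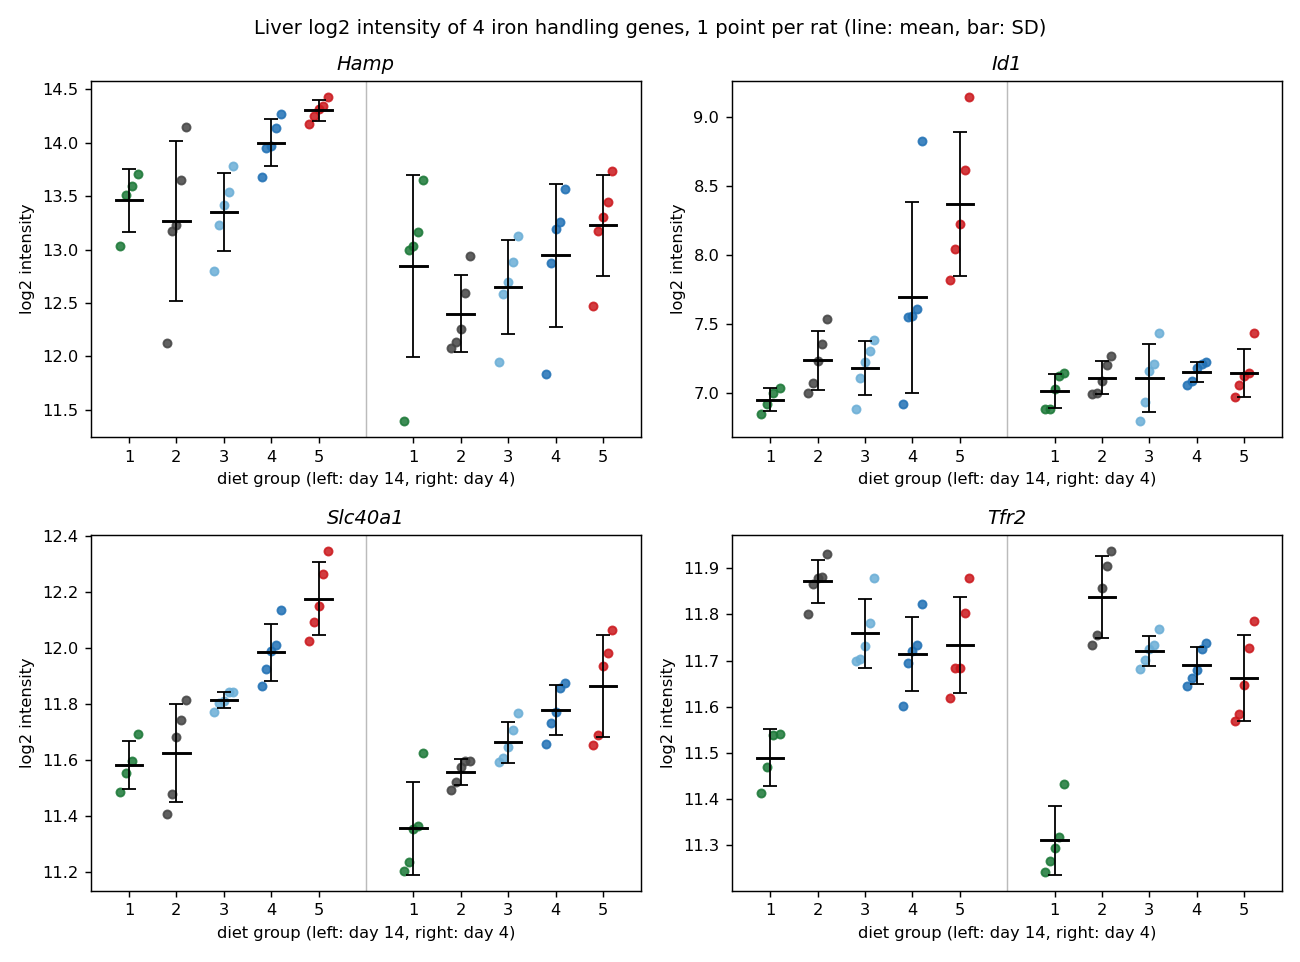
Log2 intensity (vertical axis) of Hamp, Id1, Slc40a1 and Tfr2 in each rat by diet group (horizontal axis), with day 14 in the left part and day 4 in the right part of each panel; points are rats, thick lines are means and bars are SD. Hamp in group 5 at day 14 lay between 14.17 and 14.43, and all rats of group 1 lay below all rats of group 2 in Tfr2.

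The first question was how each diet differed from overnight-fasted rats fed ad libitum (group 2). With 60% less food for 14 days, Hamp was 2.05-fold, Id1 2.19-fold and Slc40a1 1.46-fold higher than in group 2. These 3 of the 7 genes passed the test (limma, adjusted p under 0.1), all upward, beside 19.8% of all genes called in either direction. The rats of the 2 groups did not overlap in any of the 3. The share of all genes without overlap was not counted. The other 4 genes did not pass.

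Hamp stood at 14.17, 14.25, 14.32, 14.34 and 14.43 in the 5 rats of group 5 at day 14, against 12.12, 13.17, 13.23, 13.65 and 14.15 in group 2. All group 5 rats were above all group 2 rats, and they lay close together (SD 0.095, against 0.750 in group 2). The means differed by log2 1.04 ± 0.28 (SE, n = 5 each; limma adjusted p = 0.0270). Leaving out any 1 of the 10 rats gave differences of 0.75 to 1.26, and all kept the call. The probe set of Hamp was bright, with an intensity at place 12 to 772 of 14217 over the 49 arrays, which gives no rank of transcript amount between genes. Its top value of 14.43 lay near the highest value of any gene on any array, 15.01.

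In 30% restricted rats (group 4), Hamp at day 14 was 13.68, 13.96, 13.97, 14.14 and 14.26, which overlapped with the highest rat of group 2. The difference of log2 0.74 ± 0.29 did not pass (SE, n = 5 each; limma adjusted p = 0.154), though it did without rat 3 of group 2 (0.96, adjusted p = 0.0463). That rat was the highest of group 2, and no other rat left out gave this call. In group 3, with 15% less food, the values of 12.80, 13.23, 13.42, 13.54 and 13.78 lay within the range of group 2, and the difference was 0.09 ± 0.31 (adjusted p = 0.935).

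Over groups 2 to 5 at day 14, Hamp was higher by log2 0.19 ± 0.04 for each 10 percentage points less food (SE, 20 rats; limma adjusted p = 0.00218). Slc40a1 and Id1 also had a rising trend, so that 3 of the 7 genes were called, beside 24% of all genes.

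The erythroid transcripts Alas2 and Hbb were lower in group 5 at day 14, where the mean of Hamp was highest. Alas2, the first enzyme of heme synthesis in red cell precursors, stood at 5.81, 6.09, 6.11, 6.23 and 6.60 in group 5 at day 14, against 7.81, 8.03, 8.15, 8.31 and 8.41 in group 2, a difference of log2 -1.98 ± 0.14 (SE; limma adjusted p = 6.79e-06). Hbb, a globin chain, differed by -2.14 ± 0.29 (adjusted p = 5.05e-04). Of the 7 erythroid markers measured, these 2 fell, beside 19.8% of all genes called, and the other 5 did not pass, with differences of -0.13 (Slc4a1) to 0.09 (Klf1). The summed intensity of the 7 was 1425 to 3715 in group 5 and 7579 to 10866 in group 2, without overlap, but Hbb alone made up 74.0% to 94.6% of it over all rats. The other 6, Alas2 among them, summed to 361 to 424 in group 5 and 548 to 710 in group 2. In group 4, Alas2 (-0.96) and Hbb (-0.85) were lower too. This did not hold in all groups. At day 4 in group 4, the mean of Hamp was above that of group 2 (12.95 against 12.40). Hbb (13.35 against 13.25) and Alas2 (8.28 against 8.17) were above it as well, and none of these differences passed. In group 1 at day 14, 1 of the 7 erythroid markers was lower than in group 2, beside 13.2% of all genes, while Hamp did not pass. Fewer cells of a type and less RNA per cell cannot be told apart in whole tissue, and the part of these cells in the levels of Hamp was not tested.

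**Figure D2:**
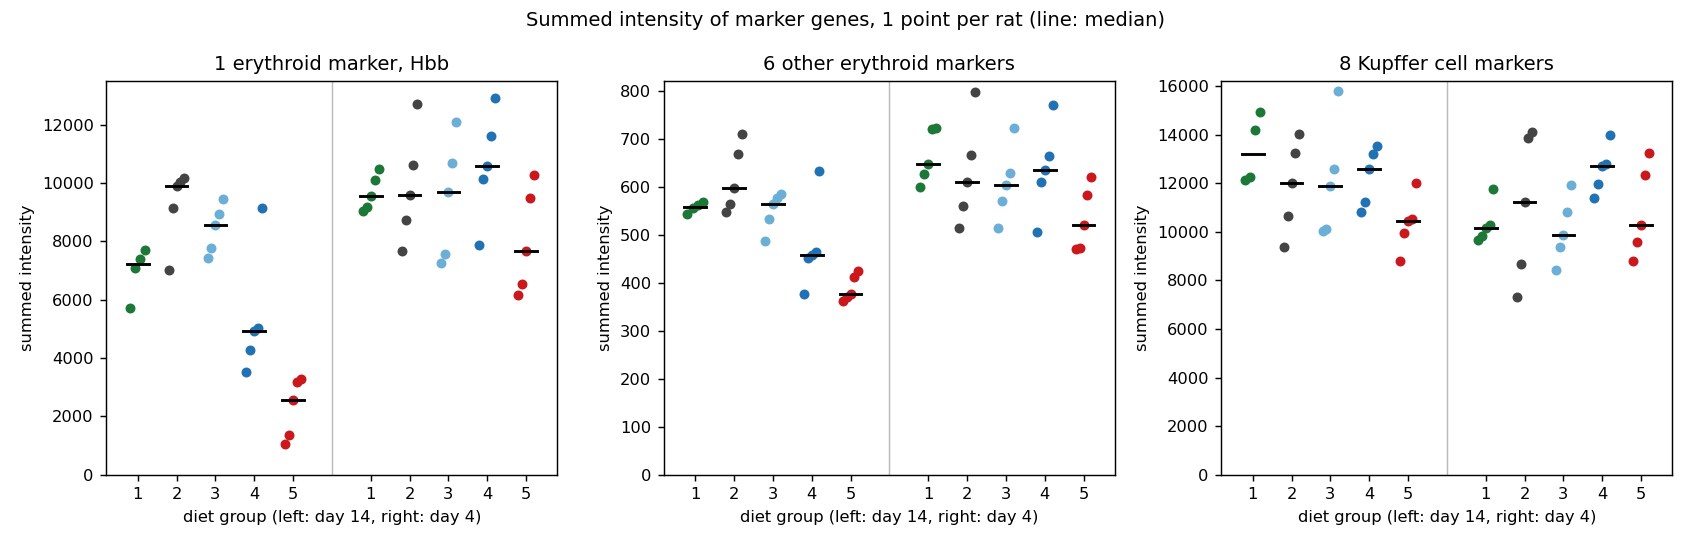
Intensity of Hbb and summed intensity of the 6 other erythroid and the 8 Kupffer cell markers (vertical axes, from 0) in each rat by diet group (horizontal axis), with day 14 in the left part and day 4 in the right part of each panel; points are rats and lines are medians. Hbb in group 5 at day 14 was 1055 to 3291 and the sum of the 6 others, of which Alas2 alone was called, 361 to 424, both below all rats of group 2, while the Kupffer cell sums overlapped.

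Id1, an inhibitor of basic helix-loop-helix factors, rose with 60% less food at day 14. Its values were 7.81, 8.04, 8.22, 8.61 and 9.14 in group 5, against 7.0, 7.07, 7.23, 7.35 and 7.53 in group 2. The groups were apart, and the difference was log2 1.13 ± 0.21 (SE, n = 5 each; limma adjusted p = 0.00403). In group 4 the rats were uneven: 4 lay between 6.92 and 7.61 and the fifth at 8.82, and the difference of 0.46 ± 0.27 did not pass (adjusted p = 0.384). In group 3 it was -0.06 ± 0.12 (adjusted p = 0.892). The slope over groups 2 to 5 was 0.21 ± 0.04 per 10 percentage points less food (SE; adjusted p = 0.00143). Markers of sinusoidal endothelium, another site of Id1 expression, summed to 5954 to 6929 in group 5 and 5948 to 6511 in group 2. Of the 7, 1 was higher, Lyve1 (0.30, limma adjusted p = 0.0795), beside 19.8% of all genes called.

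Slc40a1 rose with the degree of restriction. At day 14 it was 11.41, 11.48, 11.68, 11.74 and 11.81 in group 2, 11.77 to 11.84 in group 3, 11.86 to 12.14 in group 4 and 12.03, 12.09, 12.15, 12.27 and 12.35 in group 5. Groups 4 and 5 had no rat within the range of group 2. The difference from group 2 was 0.55 ± 0.09 in group 5 (SE, n = 5 each; limma adjusted p = 0.00250) and 0.36 ± 0.09 in group 4 (adjusted p = 0.0266), and the slope was 0.09 ± 0.01 per 10 percentage points (adjusted p = 3.98e-05). In group 4, Slc40a1 was the only one of the 7 genes called, beside 12.8% of all genes, and in group 3 (0.19 ± 0.08) none was, beside 6.54%. The other 2 probe sets of Slc40a1 gave 0.55 and 0.61 in group 5. In group 3 they gave 0.37 and 0.15, and the first of these passed when all probe sets were tested (limma adjusted p = 0.0514 and 0.515). Ferroportin is also made by Kupffer cells, the macrophages of the liver. Of their 8 markers, 1 was lower in group 5 at day 14 (Adgre1, -0.39) and none was higher, beside 19.8% of all genes called. Their sum was 8801 to 11997 in group 5 and 9395 to 14023 in group 2.

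At day 4, with 60% less food, 2 of the 7 genes were called, both upward, beside 7.14% of all genes. Hamp was 12.47, 13.18, 13.30, 13.44 and 13.74 in group 5, against 12.08, 12.13, 12.26, 12.60 and 12.94 in group 2. The lowest rat of group 5 lay within group 2, and the difference was 0.83 ± 0.23 (SE, n = 5 each; limma adjusted p = 0.0676). This call was lost in 1 fit of all groups (adjusted p = 0.102) and without each of 6 of the 10 rats (rats 1, 2 and 4 of group 2 and rats 3, 4 and 5 of group 5), with differences of 0.70 to 1.01 and adjusted p up to 0.155 over all 10. Hbb had intensities of 6164 to 10255 in group 5 and 7677 to 12700 in group 2 at this day, and none of the 7 erythroid markers was called.

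Slc40a1 at day 4 was 11.66, 11.69, 11.93, 11.98 and 12.06 in group 5, against 11.49, 11.52, 11.58, 11.60 and 11.60 in group 2. The groups did not overlap, with a difference of 0.31 ± 0.08 (limma adjusted p = 0.0611). In group 4 the difference was 0.22 ± 0.06 (adjusted p = 0.0659), again as the only one of the 7, beside 5.43% of all genes. Without single rats these calls were lost in 7 of 10 cases in group 5 (all but rats 1 and 3 of group 5 and rat 2 of group 2; 0.26 to 0.36, adjusted p up to 0.132) and in 9 of 10 in group 4 (all but rat 1 of group 4; 0.20 to 0.25, adjusted p up to 0.139). When all probe sets were tested, the other 2 of Slc40a1 gave 0.33 and 0.31 in group 5 (limma adjusted p = 0.123 and 0.0761). In group 4 they gave 0.32 and 0.21, and neither passed (adjusted p = 0.114 and 0.145).

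Hamp in group 4 at day 4 ran from 11.84 to 13.57 and differed from group 2 by 0.54 ± 0.28 (limma adjusted p = 0.375). Without its lowest rat, rat 1, the difference was 0.82 (adjusted p = 0.0396), and no other rat left out gave this call. With 15% less food none of the 7 was called, beside 0.253% of all genes. The day 4 trend over groups 2 to 5 was called for 3 of the 7, beside 8.82% of all genes: Hamp rose by 0.14 ± 0.04 and Slc40a1 by 0.05 ± 0.01 per 10 percentage points (SE; adjusted p = 0.0670 and 0.00891), and Tfr2 fell by 0.03 ± 0.01 (adjusted p = 0.0815). The call of Hamp was lost without rats 1, 2 or 4 of group 2 or rats 3, 4 or 5 of group 5 (slopes of 0.12 to 0.17 over all rats). That of Tfr2 was lost without rats 1, 2, 4 or 5 of group 2 or rats 2, 3 or 5 of group 5 (-0.03 to -0.02). Id1 did not pass at day 4 in any restricted group, with differences of -0.00 to 0.04 and SE of 0.07 to 0.11. All these comparisons share the rats of group 2 of their day.

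**Figure D3:**
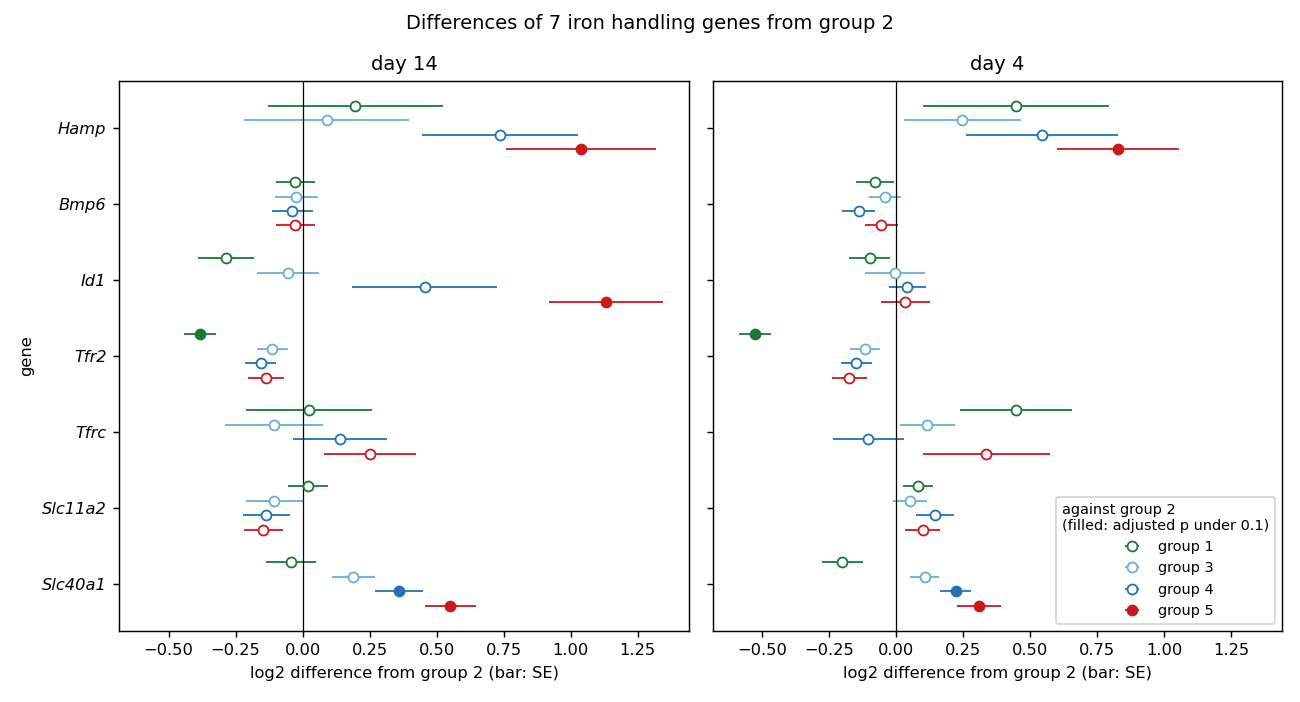
Log2 difference from group 2 of the same day (horizontal axis) for the 7 genes (vertical axis) in groups 1, 3, 4 and 5, with day 14 in the left panel; bars are SE and filled points passed limma at adjusted p under 0.1. Hamp, Id1 and Slc40a1 in group 5 at day 14 lay at 1.04, 1.13 and 0.55, and Tfr2 in group 1 at -0.38 at day 14 and -0.53 at day 4.

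Tfr2 separated group 1, labelled as not fasted, from group 2. At day 14 it was 11.41, 11.47, 11.54 and 11.54 in group 1, against 11.80, 11.87, 11.88, 11.88 and 11.93 in group 2. At day 4 it was 11.24, 11.27, 11.29, 11.32 and 11.43 in group 1, against 11.73, 11.76, 11.86, 11.90 and 11.94 in group 2. No rat of group 1 reached the range of group 2 on either day. Tfr2 fell by 0.38 ± 0.06 at day 14 (SE, n = 4 and 5; limma adjusted p = 0.00314) and by 0.53 ± 0.06 at day 4 (SE, n = 5 each; adjusted p = 2.11e-04). It was the only one of the 7 called in group 1 on each day, beside 13.2% of all genes at day 14 and 21.3% at day 4. In groups 3, 4 and 5 the means of Tfr2 lay between those of groups 1 and 2, with differences from group 2 of -0.11 to -0.16 at day 14 and -0.12 to -0.17 at day 4, none of which passed (adjusted p of 0.136 to 0.499). In 1 fit of all groups, which shares the estimate of spread, groups 4 and 5 passed on both days (adjusted p of 0.0244 to 0.0807).

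Hamp did not pass in group 1 on either day. It was 13.03, 13.51, 13.59 and 13.71 at day 14, a difference of 0.20 ± 0.33 from group 2 (limma adjusted p = 0.788). At day 4 it was 11.40, 12.99, 13.04, 13.16 and 13.65, a difference of 0.45 ± 0.35 (adjusted p = 0.449). The lowest of these rats, rat 5, had the lowest Hamp of all 49, and without it the difference was 0.81 (adjusted p = 0.0220). No other rat left out gave this call, and removing the lowest rat raises the difference by construction. Slc40a1 in group 1 at day 4 was 0.20 ± 0.08 below group 2 (adjusted p = 0.108), and 0.27 below without rat 4 (adjusted p = 0.0126). Its other 2 probe sets disagreed there, at -0.26 and 0.04 (limma on all probe sets, adjusted p = 0.0507 and 0.852). Id1 in group 1 at day 14 was 0.29 ± 0.11 below group 2 (adjusted p = 0.130), and 0.34 below without rat 5 of group 2 (adjusted p = 0.0808).

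Tfrc, whose mRNA is stabilized when iron is scarce in the cell, varied more among rats of a group than between groups. Its group 5 values at day 14 were 10.16 to 10.74, against 9.81 to 10.67 in group 2, with a difference of 0.25 ± 0.17 (limma adjusted p = 0.402). At day 4 they were 9.43 to 11.03 in group 5, against 9.81 to 10.18 in group 2, with a difference of 0.34 ± 0.24 (adjusted p = 0.509). It was not called in any comparison, though leaving out 1 rat gave a call at day 4 in group 5 (0.57 without its rat 1, adjusted p = 0.0707) and in group 1 (0.63 without its rat 2, adjusted p = 0.0286). Its other probe set differed by 0.24 in group 5 at day 14.

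Slc11a2 was nearly flat. Its group means lay between 8.62 and 8.79, and no comparison was called; in group 5 at day 14 it was 8.55 to 8.70, against 8.57 to 8.88 in group 2 (-0.15 ± 0.07, limma adjusted p = 0.229), and -0.19 without rat 4 of group 2 (adjusted p = 0.0922). Its other probe set gave 0.13 there, the opposite sign. Bmp6, the ligand, was as flat at its brightest probe set, with group means of 7.79 to 7.98 and a difference of -0.03 ± 0.07 in group 5 at day 14 (adjusted p = 0.869). The 4 probe sets of Bmp6 disagreed there. The dimmer ones gave 0.04, 0.24 and 0.27, and the last of these passed when all probe sets were tested (limma adjusted p = 0.0323), so the direction of Bmp6 is not settled by these arrays.

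**Figure D4:**
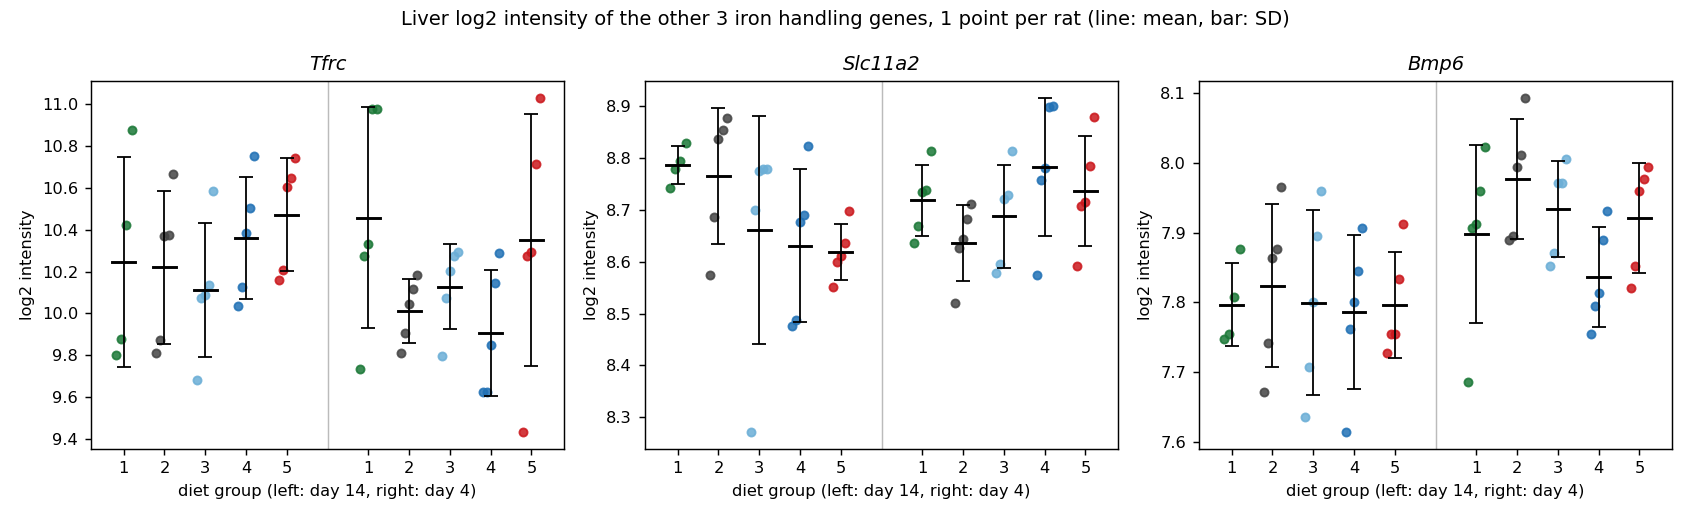
Log2 intensity (vertical axis) of Tfrc, Slc11a2 and Bmp6 in each rat by diet group (horizontal axis), with day 14 in the left part and day 4 in the right part of each panel; points are rats, thick lines are means and bars are SD. The 10 group means spanned 0.56 in Tfrc, 0.17 in Slc11a2 and 0.19 in Bmp6.

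The next question was how the levels at day 14 differed from those at day 4 in the same group. The day is also the only label under which samples may have been handled apart, and the rats of day 14 were older. Time on the diet, age and handling therefore cannot be told apart here. Groups 1 and 2 had no restricted diet on either day. Hamp was higher at day 14 in all 5 groups. The difference was 1.08 ± 0.18 in group 5, with no overlap between 14.17 to 14.43 at day 14 and 12.47 to 13.74 at day 4 (SE, n = 5 each; limma adjusted p = 0.0150), and 1.05 ± 0.26 in group 4 (adjusted p = 0.0582). In group 3 it was 0.71 ± 0.22 (adjusted p = 0.0724). In the groups fed ad libitum the differences were of like size but wider error and did not pass, at 0.86 ± 0.31 in group 2 (adjusted p = 0.49) and 0.61 ± 0.37 in group 1 (adjusted p = 0.464). The call in group 4 was lost without rats 1, 3 or 4 of day 14 (0.78 to 1.21 and adjusted p up to 0.126 over all 10). That in group 3 was lost without rats 1, 2 or 5 of day 14 or rats 1, 3 or 5 of day 4 (0.53 to 0.84 and adjusted p up to 0.160). The erythroid genes Hbb and Alas2 were lower at day 14 in group 5 (-1.92 and -1.50) and in group 4 (-1.04 and -1.09). In each of these groups 2 of the 7 erythroid markers were called, both downward, beside 6.71% and 5.47% of all genes. Group 3 also had 2 lower, beside 12.8%. Hbb (13.03 at day 14, 13.18 at day 4) and Alas2 (7.91 and 8.01) differed little there. The part of these genes in the levels of Hamp was not tested here either.

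Id1 was higher at day 14 than at day 4 in group 5 alone among the calls. It had 7.81 to 9.14 at day 14, against 6.97 to 7.43 at day 4, a difference of 1.22 ± 0.21 (SE, n = 5 each; limma adjusted p = 0.0150). Of the 7 genes, 2 were called in group 5 beside 6.71% of all genes, 1 (Hamp) in group 4 beside 5.47% and 1 (Hamp) in group 3 beside 12.8%. None was called in group 2, beside 0.00703%, or in group 1, beside 0%. Slc40a1 was 0.31 ± 0.10 higher in group 5 (adjusted p = 0.103) and passed in some other settings, and without rat 3 of day 14 (0.35, adjusted p = 0.0684) or rat 4 of day 4 (0.36, adjusted p = 0.0643).

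Whether the effect of restriction itself changed between the days was tested as an interaction. Id1 was the only one of the 7 for which it was called: the difference between groups 5 and 2 was larger at day 14 than at day 4 by 1.10 ± 0.25 (SE; limma adjusted p = 0.0468), beside 2.04% of all genes called. For Hamp the difference between the days was 0.21 ± 0.39 (adjusted p = 0.885). In groups 4, 3 and 1 no interaction was called among the 7, beside 0.134%, 0.591% and 0% of all genes.

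Genes around hepcidin were read from lists written by hand, in group 5 against group 2 at day 14. In this comparison 19.8% of all genes were called, in either direction, and the counts below are to be read beside that share. Of 20 genes of the BMP and SMAD branch, 3 rose, 1 fell and 16 did not pass, a share at the background of 19.8%, with a median of 0.06 beside 0.00 over all genes. Those that rose were Smad7, an inhibitor of SMAD signalling (0.50 ± 0.12, SE; limma adjusted p = 0.0147), Id4 (0.41 ± 0.14, adjusted p = 0.0703) and Smad4, the common SMAD partner (0.33 ± 0.07, adjusted p = 0.00503). Hjv, the co-receptor, fell (-0.48 ± 0.16, adjusted p = 0.0750). Hjv was lower in group 4 (-0.68) and group 3 (-0.70) at day 14 and in group 5 (-0.71) and group 4 (-0.65) at day 4 as well. Id3 did not pass against group 2. Between the days in group 5, 4 of the 20 genes were higher at day 14 and none was lower, beside 6.71% of all genes. Id3 was among these 4 (0.56 ± 0.12, limma adjusted p = 0.0333).

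Of 13 genes of interleukin 6 signalling and the acute phase, 2 rose and 1 fell, a share near the background of 19.8%, with a median of -0.07. The 2 were the receptor chains, Il6r (1.10 ± 0.20, SE; limma adjusted p = 0.00338) and Il6st (0.41 ± 0.10, adjusted p = 0.0184), while Fga, a fibrinogen chain, fell (-0.17). Il6r was also higher in group 4 at day 14 (0.91) and in groups 5 (0.82) and 4 (0.71) at day 4. Of 3 genes tied to hepcidin in starved mice, Ppargc1a, a coactivator of gluconeogenesis, rose by 1.83 ± 0.31 (adjusted p = 0.00208) and Pck1, its target, by 0.21 ± 0.06 (adjusted p = 0.0311), and Creb3l3 did not pass. At day 4, Creb3l3 was lower in group 5 (-0.41), and Ppargc1a did not pass.

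The counts of the next 4 lists also stand beside the background of 19.8%. Of 8 genes of iron storage and sensing, 3 rose and none fell (median 0.09): Ncoa4, which delivers ferritin for breakdown (0.55 ± 0.14, SE; limma adjusted p = 0.0181), and the hypoxia-inducible factors Epas1 (0.39 ± 0.08) and Hif1a (0.37 ± 0.07). Of 14 transport genes, 2 rose and 3 fell (median -0.11). Steap3, an iron reductase of endosomes, fell by 0.76, Slc39a8, a zinc and iron importer, by 0.56 and Slc46a1, a folate and heme transporter, by 0.48, while the mitochondrial iron importers Slc25a28 (0.42) and Slc25a37 (0.29) rose. Of 8 heme scavenging genes only Lrp1, the receptor of hemopexin, changed (-0.56 ± 0.07, adjusted p = 3.74e-04; median of the list -0.05). Of 8 iron-sulfur cluster genes Lyrm4 (0.36) and Isca1 (0.31) rose (median 0.01).

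**Figure D5:**
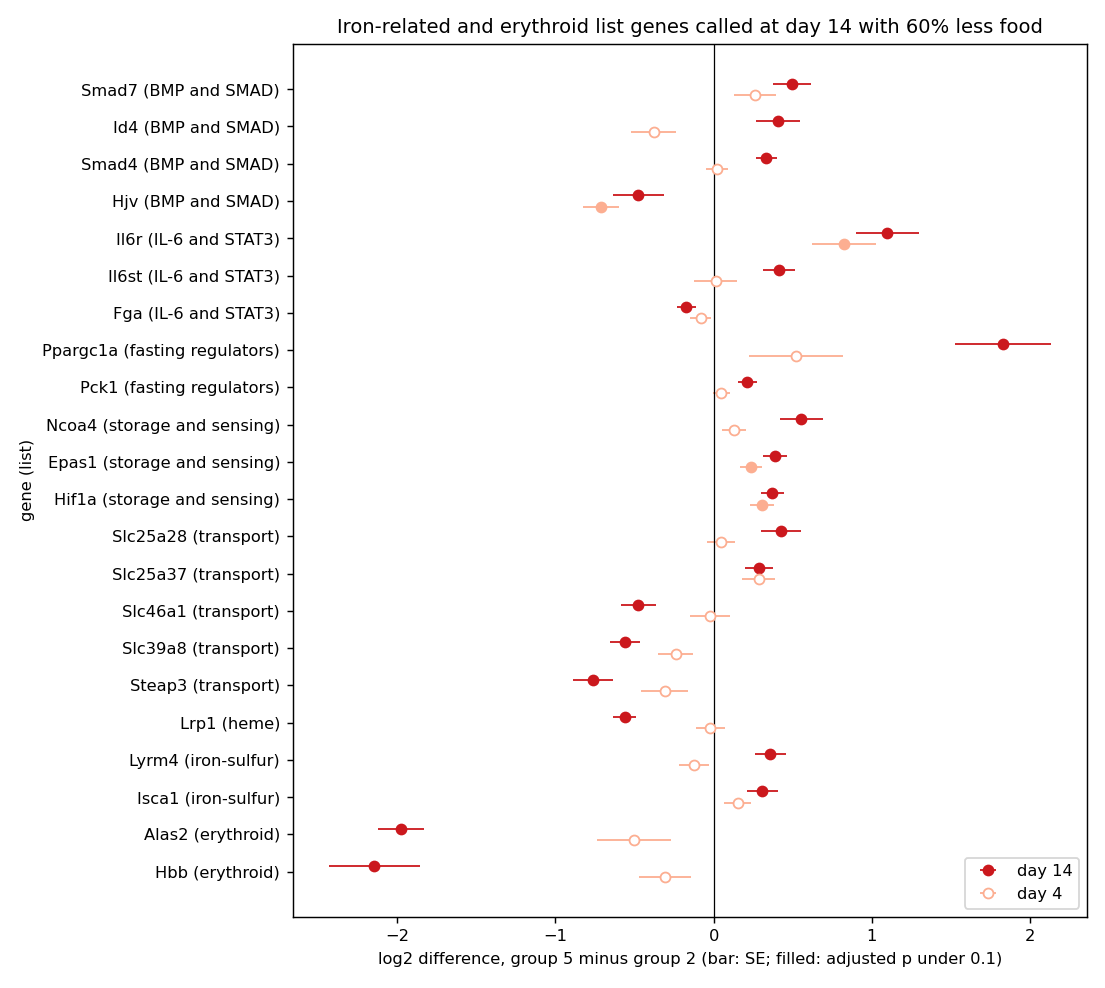
Log2 difference between group 5 and group 2 (horizontal axis) for the 22 genes of the iron-related and erythroid lists that were called at day 14 (vertical axis, with the list), at day 14 and at day 4; bars are SE and filled points passed limma at adjusted p under 0.1. Ppargc1a (1.83) and Il6r (1.10) lay highest and Hbb (-2.14) and Alas2 (-1.98) lowest at day 14.

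Genes were also ranked by how closely their 10 centred group means followed those of Hamp and Id1, as the mean absolute difference. Nearest to Hamp were Ddit4, an inhibitor of mTOR signalling (0.17), Ugt2b34l1 (0.18) and Ngef (0.19). Nearest to Id1 were Ell2, an elongation factor of transcription (0.08), Zpr1 (0.10) and Tnk2 (0.11).

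Within groups, rats with more Hamp tended to have more Id1. After the mean of each group and day was taken out, Pearson's r was 0.30 over 49 rats (2-sided permutation p = 0.00069, adjusted over 21 pairs 0.0145) and Spearman's rho 0.46 (p = 0.00093, adjusted 0.0195). It was 0.28 without the 2 rats farthest from the median of Hamp, 0.42 in the 24 rats of day 14 and 0.26 in the 25 rats of day 4. By size of r, Id1 ranked 793rd of 14216 genes for Hamp, and Hamp 1690th for Id1. The other 20 pairs did not pass (adjusted p of at least 0.374 for r and 0.359 for rho), Hamp and Slc40a1 among them (r = -0.20). Some of these had an r larger in size than that of Hamp and Id1. They were Tfrc and Slc40a1 (0.37) and Hamp and Tfrc (-0.34), where Tfrc ranked 408th for Hamp.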

How the data were processed

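Total RNA of 49 rat livers had been hybridised to 1-colour Affymetrix rat genome arrays, 1 per rat. The deposited values are intensities on a linear scale, rounded to whole numbers, which the authors made by robust multi-array average (RMA: background correction, quantile normalization between arrays and 1 summary per probe set) with affy 1.38.1 in R 3.0.1, after quality control in Affymetrix Expression Console. The methods name hepatocytes as the source of RNA, and the labels name liver, which was homogenized.

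Intensities were turned into log2. At the median intensity of 83 rounding gives a step of log2 0.017. Of 31042 probe sets, 20826 had 1 gene symbol, 436 several and 9780 none. The last 2 kinds were left out, and each gene kept its probe set of highest mean, leaving 14217 genes. Groups came from the sample labels.

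Each group was compared with group 2 of its day by limma 3.58.1 (lmFit and eBayes, R 4.3.3) in a fit of the groups compared alone. Day 14 was set against day 4 likewise, and the interaction of day and group and the linear trend over groups 2 to 5 were fitted too. P-values were adjusted by Benjamini-Hochberg over all genes, with a threshold of 0.1. Pairs of members were correlated within groups in Python 3.11.15 by 100000 permutations of rats within group and day, over 21 pairs of the 7 measured genes in place of the 36 of all 9. Limma and the correlation test were tested on simulated data. Rats were housed in pairs or groups, and nothing in the labels says which of them shared a cage. The p-values treat each rat as independent and would be too small if cage mates were alike. The number of arrays limits the precision.

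Members and gene lists were chosen with earlier results of these data known; the lists were written by hand from general knowledge. Genes named beyond the members are, per list, up to 4 called genes with the largest difference in a comparison, genes whose count is described, and the 3 profiles nearest to each of the 2 members with the widest range. Alternatives were 1 fit of all groups, a threshold of 0.05, dim probe sets left out (below log2 4.94, the lower quartile; 12090 genes kept), the mean over a gene's probe sets, all probe sets, quantile normalization again, array weights and leaving out each rat. The lognormal-normal model of the methods was not used here. Promoter sequences are from RefSeq (GRCr8), and probe annotation is from the platform table.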

Additional observations from a re-analysis of the deposited data

Results flagged for a closer look

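In each gene and group the highest and lowest rat were set against the others by their gap over the range of the group (Dixon's test). Of 70 combinations of 7 genes and 10 groups, 1 stood out, where chance flags about 1 in 20. Slc11a2 in group 3 at day 14 had a lowest rat at 8.27, while the other 4 lay between 8.70 and 8.78, a gap of 0.847 of the range.

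The effect of 60% less food on Id1 differed between the days. The difference between groups 5 and 2 was larger at day 14 than at day 4 by log2 1.10 (limma interaction, adjusted p = 0.0468), and it stayed under the threshold of 0.1 without any 1 of the 20 rats (0.90 to 1.24, adjusted p up to 0.0908).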

How the results depend on the processing

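The calls of Hamp, Id1 and Slc40a1 in group 5 at day 14, of Slc40a1 in group 4 at day 14, of Tfr2 in group 1 on both days, of Hamp and Id1 between the days in group 5, of the Id1 interaction in group 5 and of the day 14 trends kept their direction and stayed called in all alternatives, the threshold of 0.05 included, and at 0.1 without any 1 rat. The highest adjusted p among the alternatives was 0.0524, for the interaction with all probe sets tested. Of the 2251 values of uncalled genes under an alternative or without a rat, 90 changed sign. The counts that moved most for their size come first. At adjusted p under 0.05 the number of the 7 genes called fell to 0 in groups 5 and 4 at day 4 (2 and 1 at 0.1), to 0 between the days in groups 4 and 3 (1 each) and to 1 in the day 4 trend (3). In 1 fit of all groups it was 2 in group 4 on both days, in group 1 at day 4 and between the days in group 4, each 1 otherwise, and 0 between the days in group 3; in group 5 at day 4 it stayed at 2, with Tfr2 gained and Hamp lost (adjusted p = 0.102). Array weights gave 2 in groups 4 and 1 at day 14, in group 1 at day 4 and between the days in group 3. Leaving out dim probe sets gave 2 in group 1 at day 4 and between the days in group 3, and so did the mean of the probe sets for the days in group 3. Smaller moves were these. In 1 fit of all groups Tfr2 was gained in group 5 at day 14 (limma adjusted p = 0.0449) and in the day 14 trend (0.0674). Slc40a1 was gained there between the days in group 5 (0.00503), and in several other settings. Testing all probe sets lost Tfr2 from the day 4 trend. Some single rats left out also gave such gains, but these rats were found by trying each in turn. The cause was not tested. The share of all genes called moved as well without single rats, and is given in brackets. The number of the 7 called ran from 0 to 1 between the days in group 3 (6.75% to 13.9%) and group 4 (2.31% to 5.60%). It ran from 1 to 2 in group 1 at day 14 (8.03% to 12.1%) and day 4 (16.9% to 21.0%) and in group 4 at day 14 (9.46% to 11.5%). At day 4 it ran from 0 to 3 in group 5 (4.23% to 6.99%), from 0 to 2 in group 4 (3.24% to 6.02%) and from 1 to 3 in the trend (6.44% to 9.53%). For the other alternatives the share of all genes was not counted. No paired analysis was possible because the labels give the rats no number shared between groups. With 5 rats per group, differences of the size of their error cannot be told from none, and rounding limits dim probe sets.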

Other observations

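Group 1, labelled as not fasted, was set against group 2 in the genes around iron, where 13.2% of all genes were called at day 14 and 21.3% at day 4. At day 4, 4 of 8 storage and sensing genes were lower and none was higher: Pcbp2, an iron chaperone (-0.44 ± 0.07, SE; limma adjusted p = 0.00111), Aco1 (-0.40 ± 0.09) and Ireb2 (-0.30 ± 0.08), which encode the iron regulatory proteins, and Ncoa4 (-0.40 ± 0.06). At day 14, 2 of the 8, Ncoa4 (-0.35) and Pcbp2 (-0.21), were lower again. Of 14 transport genes, 5 were higher and none lower at day 4, led by Slc46a1 (0.88 ± 0.13, adjusted p = 0.00114) and Steap3 (0.49 ± 0.12), and 3 were higher at day 14, where Slc46a1 reached 0.85 and Steap3 0.61. Creb3l3, which activates Hamp in mice, was lower on both days (-0.60 ± 0.07 at day 14 and -0.97 ± 0.09 at day 4, adjusted p = 8.00e-04 and 3.37e-05).

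Marker lists of other cells gave these counts in group 5 against group 2 at day 14, beside 19.8% of all genes called. Of 6 hepatocyte markers Tat (1.24) and Cps1 (0.23) rose and Apoa1 (-0.62) fell. Of 7 stellate cell markers Rgs5 (0.45) rose and Pdgfrb (-0.80) fell, of 4 cholangiocyte markers Epcam (0.43) rose, and of 5 proliferation markers none passed. In group 1 at day 14 all 5 proliferation markers were higher than in group 2 (0.34 to 0.99), beside 13.2% of all genes called. At day 4, 2 of the 5 were higher, beside 21.3%. Of these markers Mki67 (mean log2 4.03) and Cdk1 (4.87) lay below the dim level of 4.94.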
